A study of Mus musculus with 4 samples.

Results

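The 35 genes described here are the gene of the tumour suppressor p53 and genes that act in its feedback loops or respond to it, listed by their output: feedback, growth arrest, death, and repair and metabolism. A probe set was taken as a member when the single gene symbol of its annotation, or a synonym of it, was on the list. In this way 32 of the 35 genes were measured, with 62 probe sets, among 18193 genes with 34945 single-symbol probe sets. Trp53, which encodes p53 itself, and the targets Bax and Gdf15 had no probe set of that single symbol in the table used, and were not analysed here.

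The RNA was that of E14, a line of mouse ES (mES) cells, kept in medium with fetal bovine serum and leukaemia inhibitory factor. The control RNAi group (2 arrays) was transfected with the vector pSuper.puro, for which the labels name no hairpin. The Zfp322a RNAi group (2 arrays) carried a plasmid for a short hairpin RNA against Zfp322a, which encodes a zinc finger protein of the nucleus. Both groups were transfected by lipofection, and according to the labels puromycin selection lasted 3 days in both, and the comparison asks which genes responded to the loss of Zfp322a mRNA. The study used more than 1 hairpin elsewhere, and the labels do not say which of them these arrays carried.

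p53 is a transcription factor that is made all the time and destroyed as fast, because its target Mdm2 marks it for degradation. DNA damage and other stresses release it from Mdm2, after which it raises genes that stop the cell cycle, start death, repair DNA or change metabolism, together with genes that shut it off again. Mouse ES cells are known for a short G1 phase and for a G1 arrest that responds poorly to DNA damage, while p53 in them still drives many target genes and differentiation. Most of this control acts on the p53 protein, which arrays do not measure.

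Values are log2 RMA levels of an array, and a change is the mean of the Zfp322a RNAi arrays minus the mean of the control RNAi arrays, given with its standard error (SE) from limma. A gene was called when its limma p, adjusted by Benjamini-Hochberg over all 18193 genes, was under 0.05, and rose and fell are used for called genes only. Array medians lay between 6.07 and 6.11, and the correlation over all probe sets was 0.998 within each group and 0.989 to 0.990 across groups. Nothing in the labels ties the replicates to separate cultures, and the p-values then cover just the spread between these samples, which may be technical. Zfp322a itself read 8.75 and 8.84 on the control arrays and 7.53 and 7.13 after Zfp322a RNAi, a change of -1.47 ± 0.14 that left 36.2% of the control level (adjusted p = 0.00158, limma). Its other probe set read 8.82 and 8.89 against 7.08 and 6.89, a larger change of -1.87 ± 0.09 in a fit over all probe sets. Among 8 mES cell markers 2 fell (25%, against 14.4% of all genes) and 0 rose (against 14%). At an unadjusted limma p under 0.05, 3 of these markers were lower and 0 higher, where 3872 and 3312 of all 18193 genes were. Pou5f1, Nanog, Sox2 and Zfp42 read 12.50 or more on every array and were not called. Esrrb (-0.41 ± 0.07) and Tdgf1 (-0.59 ± 0.07) fell, and Dppa5a (-0.16) and Fgf4 (-0.24) were not called. The summed linear level of the 8 markers, in which the brightest weigh most, was 58420 to 59961 on the control arrays. After Zfp322a RNAi it was 53542 to 53596.

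Promoter sequences of the members are given first, because p53 acts through a short element in DNA. The letters of that element are a pair of p53 half-sites of 10 bases, each a run of purines, a short core that opens with C and closes with G around A or T bases, and a run of pyrimidines. RefSeq promoter windows (build GRCm38.p6, 250 bases before to 50 bases after an annotated start) were found for 25 of the 32 measured members, with 33 windows in all. Trp53inp1, Ptprv, Pmaip1, Tnfrsf10b, Perp, Zmat3 and Rrm2b had none. A p53 half-site stood on either strand in 11 of the 33 windows (33.3%), against 8.36% of all 32851 windows in the table. Over the 18109 windows of measured genes the share was 7.22%. These shares count windows, which can overlap, and the same site of Aen stood in both of its windows. The sites of the members that rose are shown with 5 bases on each side, on the strand of the gene, with the half-site in capitals and the window it came from.

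Gadd45a, chr6:67037358-67037657, minus strand: gctgaGGGCTAGCCCcatat
Ppm1d, chr11:85311004-85311303, plus strand: ggggcGAGCTTGCTCttctt
Mdm2, chr10:117710709-117711008, minus strand: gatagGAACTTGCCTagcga
Ccng1, chr11:40755237-40755536, minus strand: tgcccGGGCAAGCCTtggca
Ckap2, chr8:22185770-22186069, minus strand: tctgaAGACATGTCCtgact
Polk, chr13:96519138-96519437, minus strand: agcttGAACTAGCCTcaaac

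The same letters also stood beside starts of members that did not pass the test, and these are shown for contrast.

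Cdkn1a, upstream start, chr17:29090729-29091028, plus strand, first: ggtggGGACTAGCTTtctgg
Cdkn1a, the same window, second: ttcagGAACATGTCTtgaca
Ei24, chr9:36797285-36797584, minus strand: ggcccGGGCATGCCCagtgt
Aen, chr7:78895808-78896107, plus strand: aagccGGGCTTGTCCgggca
Sesn1, chr10:41887189-41887488, plus strand: ccttcAAGCTTGTTTttgct

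Thus 10 genes had a half-site in a window, and 6 of these rose, while 7 of the 15 genes with windows that lacked it rose. Over all genes with a window, 14.2% of the 1242 genes with a half-site and 14.2% of the 13210 without one rose. Among the members these are shares of 60.0% with and 46.7% without the letters, over few genes. A match is a description of letters in a short window, and many p53 elements lie farther away.

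**Figure D1:**
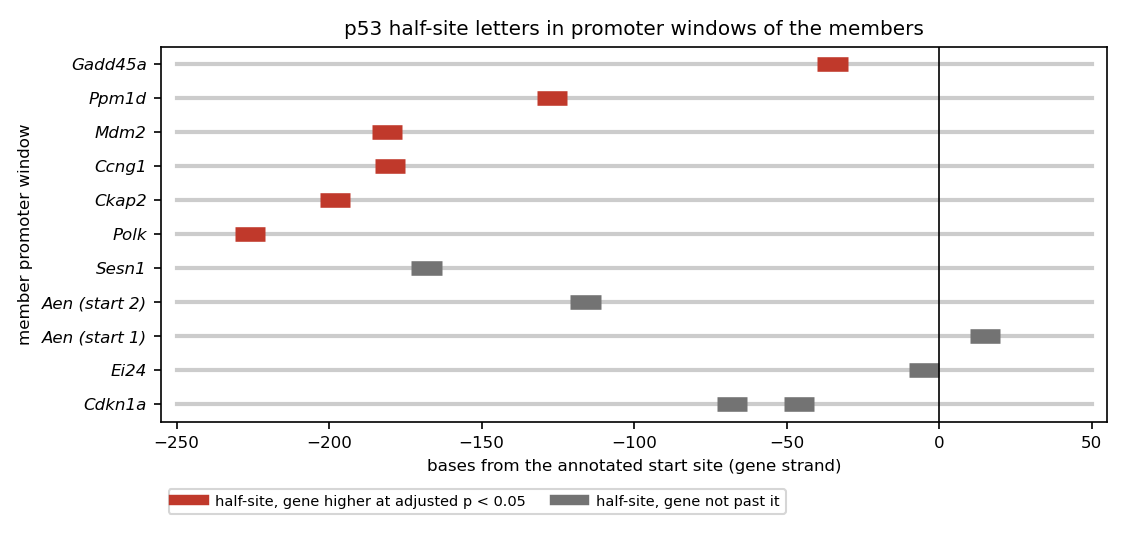
Position of p53 half-site letters (bars of 10 bases) in the promoter windows of members, in bases from the annotated start on the strand of the gene, with windows ordered by the log2 change of the gene. Red bars belong to 6 genes that rose and grey bars to 4 genes that did not pass the test, and both kinds are scattered between positions -231 and 11.

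A match to a whole p53 response element, with both half-sites exact and within 13 bases of each other, was found in 1 of the 33 member windows and in 0.07% of all windows. It belonged to Cdkn1a, the gene of the cell cycle inhibitor p21, at the farther upstream of its 2 annotated starts, 2790 bases before the other. The 250 bases before each of these starts are shown, with exact half-sites in capitals, since this gene carried the match and yet did not rise. The search misses half-sites with a mismatch. In the upstream stretch GAACATGTCT is followed directly by tgacatgttc, which opens with t in place of a purine and was therefore not marked. The marked pair may thus not be the pair that p53 uses, which was not tested.

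Cdkn1a, upstream start, chr17:29090729-29090978, plus strand: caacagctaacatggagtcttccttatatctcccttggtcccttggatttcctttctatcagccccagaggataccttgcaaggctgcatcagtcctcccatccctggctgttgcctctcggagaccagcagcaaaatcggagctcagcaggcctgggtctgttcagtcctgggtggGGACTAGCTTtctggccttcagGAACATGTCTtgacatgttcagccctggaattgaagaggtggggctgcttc
Cdkn1a, downstream start, chr17:29093519-29093768, plus strand: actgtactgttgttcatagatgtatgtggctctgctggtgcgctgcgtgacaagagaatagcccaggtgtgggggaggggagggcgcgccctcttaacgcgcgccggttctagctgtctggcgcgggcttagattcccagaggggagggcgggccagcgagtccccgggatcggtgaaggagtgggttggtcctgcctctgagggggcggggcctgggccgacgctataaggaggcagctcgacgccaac

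For comparison, the same stretch of Gadd45a, which rose and has 1 half-site near its start, and that of Eda2r, the member with the largest rise and no half-site in the window, read as follows.

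Gadd45a, chr6:67037408-67037657, minus strand: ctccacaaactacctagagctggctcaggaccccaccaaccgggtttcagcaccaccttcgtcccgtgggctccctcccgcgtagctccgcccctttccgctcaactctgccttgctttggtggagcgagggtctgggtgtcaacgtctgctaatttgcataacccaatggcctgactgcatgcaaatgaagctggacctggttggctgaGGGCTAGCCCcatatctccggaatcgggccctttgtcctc
Eda2r, chrX:97377210-97377459, minus strand: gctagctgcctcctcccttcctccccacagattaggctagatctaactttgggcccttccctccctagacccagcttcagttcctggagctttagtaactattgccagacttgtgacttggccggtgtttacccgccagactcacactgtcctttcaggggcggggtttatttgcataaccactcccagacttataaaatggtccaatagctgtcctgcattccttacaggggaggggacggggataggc

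Other promoter letters were searched on both strands. The CCAAT box was found in 18 of the 33 member windows (54.5%, against 37.4% of all windows). Overlapping windows of Aen and of Psrc1 shared matches, which count once for each window. The cyclic AMP response element TGACGTCA was found in the windows of Btg2, Plk2 and Ppm1d (9.09%, against 1.79%), and Plk2 and Ppm1d rose while Btg2 did not pass the test. TTGCATCA, letters that C/EBP and ATF proteins can share, was found in the windows of Gadd45g and Polk (6.06%, against 0.89%). Both rose, as did 50% of the members, and neither was called in a fit with the replicate number as a block. The match of Polk began at position 21, after the start. TATAAA was found in 5 windows (15.2%, against 13.6%). Over the 18109 windows of measured genes alone, the shares were 37.4% for the CCAAT box, 2.49% for TGACGTCA, 0.68% for TTGCATCA and 9.77% for TATAAA.

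After Zfp322a RNAi, every p53 target gene on the list that passed the test was higher, on the probe set used for each. The members were chosen with earlier results of these data known, so the counts describe this list and not p53 targets at large. Among 27 other p53 targets, 5 rose and 9 fell. Of the 32 measured members 16 rose, 0 fell and 16 were not called, where 28.4% of all genes were called, 14% as higher and 14.4% as lower. At an unadjusted limma p under 0.05, 18 members were higher and 0 lower, where 3312 and 3872 of all 18193 genes were. The median change of the members was 0.30, against -0.04 over all genes. Of the 32 changes 29 were above 0, where 7615 of all 18193 genes had such a change. In 25 members both Zfp322a RNAi arrays lay above both control arrays and in 1 member, Cdkn1a, both lay below, where 26.8% of all genes had such arrays above and 35.8% below. By a fold rule of 1.5, which the study's methods give and which has no test, 8 members were higher and 0 lower (5.05% and 3.20% of all genes).

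**Figure D2:**
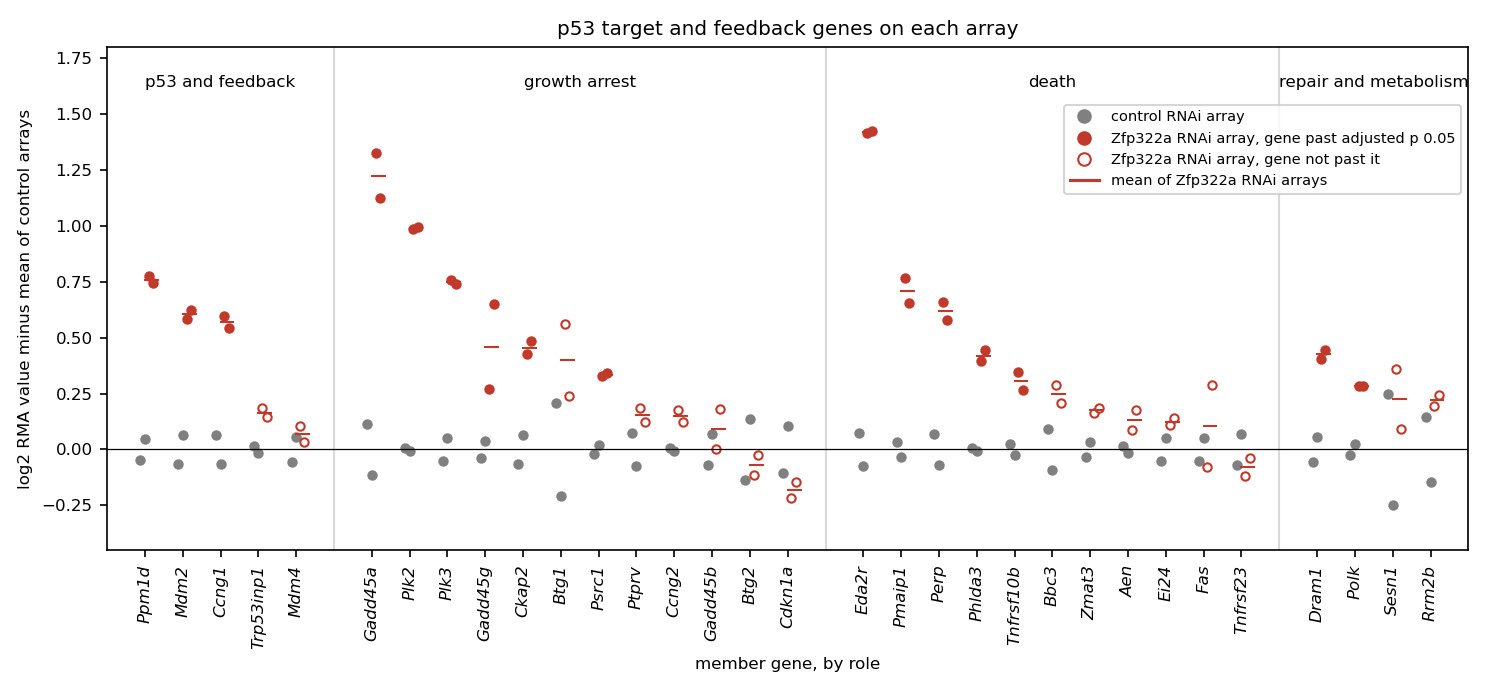
Each point is 1 array, plotted as its log2 RMA value minus the mean of the control arrays for that gene, with members grouped by role, and red lines give the mean of the 2 Zfp322a RNAi arrays. Filled red points mark the 16 members that rose, from Eda2r at 1.42 down to Polk at 0.29, and open points the 16 that did not pass the test, down to Cdkn1a at -0.18.

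The calls need all 4 arrays. When any 1 of them was left out, 0 of all 18193 genes passed the adjusted limma p, Zfp322a included, so that the loss of the members' calls is no measure of their stability. In these fits the 16 called members kept their sign. The changes were 1.345 to 1.495 for Eda2r, 1.11 to 1.34 for Gadd45a and 0.985 to 0.995 for Plk2. An exact permutation test of 1 gene cannot go below 0.333 with 2 arrays against 2.

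Feedback genes, which are raised by p53 and then restrain or tune it, rose in 3 of 5 cases (60%, against 14% of all genes). Of the 5, 0 fell (against 14.4%), and their median change was 0.57, against -0.04 over all genes. Ppm1d, which encodes the phosphatase Wip1 that removes activating phosphates from p53 and from its kinases, read 8.52 and 8.61 on the control arrays and 9.34 and 9.31 after Zfp322a RNAi. It rose by 0.76 ± 0.07, or 1.69-fold (adjusted p = 0.00162, limma), with no overlap between the groups. Mdm2, the ubiquitin ligase that sends p53 to the proteasome, read 10.38 and 10.51 against 11.03 and 11.07. Its rise of 0.61 ± 0.08, or 1.52-fold (adjusted p = 0.00353, limma), was close to that of Ccng1, the gene of cyclin G1, which brings a phosphatase to Mdm2. Ccng1 read 12.46 and 12.33 against 12.99 and 12.94, a rise of 0.57 ± 0.08 (adjusted p = 0.00429, limma). Both genes had every Zfp322a RNAi value above every control value.

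Mdm4, a relative of Mdm2 that blocks the activity of p53, read 10.27 and 10.38 against 10.43 and 10.36. Its change of 0.07 had a 95% interval of -0.12 to 0.26 (adjusted p = 0.549, limma), and the arrays of the groups overlapped. Trp53inp1, which encodes a stress protein that promotes the phosphorylation of p53, read 12.65 and 12.62 against 12.82 and 12.78, a change of 0.17 with an adjusted limma p of 0.128. All of its Zfp322a RNAi values lay above the control values, by a margin that the test did not call.

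Among growth arrest genes the stress kinases Plk2 and Plk3 and the stress gene Gadd45a had the largest rises. There were 12 measured, of which 6 rose (50%, against 14% of all genes), 0 fell (against 14.4%) and 6 were not called. The median change of the 12 was 0.37. Gadd45a, whose small protein binds PCNA, p21 and stress kinase activators, read 9.03 and 8.80 on the control arrays and 10.24 and 10.04 after Zfp322a RNAi. That was a rise of 1.23 ± 0.11, or 2.34-fold (adjusted p = 0.00152, limma), rank 100 of 18193 genes by size of rise. Plk2, a Polo-like kinase that is induced by stress and acts at centrioles, read 9.68 and 9.67 against 10.66 and 10.67. It rose by 0.99 ± 0.07, or 1.99-fold (adjusted p = 0.000979, limma), and its relative Plk3 rose by 0.75 ± 0.07 (adjusted p = 0.00168, limma), from 7.22 and 7.32 to 8.03 and 8.01. For all of these genes the groups stood clear of each other.

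Cdkn1a was not among the genes that rose. It encodes p21, the inhibitor of cyclin-dependent kinases through which p53 halts cells in G1 in most tissues, and read 9.63 and 9.84 on the control arrays and 9.52 and 9.59 after Zfp322a RNAi. Its change of -0.18 ± 0.09 had a 95% interval of -0.41 to 0.05 (adjusted p = 0.209, limma), which leaves out a rise of the size seen in Ppm1d, Plk2 or Gadd45a. The second probe set of Cdkn1a read 9.08 and 9.17 against 9.04 and 9.15, a change of -0.03 with overlapping groups. Among all genes, Cdkn1a had rank 13623 by size of rise.

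Ckap2 and Psrc1, which encode proteins of the mitotic spindle, both rose. Ckap2 read 10.99 and 11.12 against 11.48 and 11.54, a change of 0.46 ± 0.08 (adjusted p = 0.00901, limma), and Psrc1 read 11.53 and 11.57 against 11.88 and 11.89, a change of 0.34 ± 0.07 (adjusted p = 0.0151, limma). Gadd45g, a Gadd45 gene known from differentiating cells, read 5.63 and 5.71 against 5.94 and 6.32, and its 2 Zfp322a RNAi arrays differed by more than the nearest arrays of the groups. Its rise of 0.46 ± 0.13 was the weakest call among the members (adjusted p = 0.0467, limma), and in a fit over all probe sets its adjusted p was 0.0607. The change was 0.27 without Zfp322a RNAi replicate 2 and 0.65 without replicate 1 of that group.

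The other growth arrest genes did not pass the test. Btg1, an antiproliferative gene that binds mRNA deadenylases, read 11.85 and 11.43 against 12.20 and 11.88, a change of 0.40 ± 0.17 (adjusted p = 0.135, limma). Its control arrays lay farther apart than those of any other growth arrest gene. Btg2, its closest relative, read 10.46 and 10.73 against 10.48 and 10.57, with overlapping groups. Gadd45b had overlapping groups as well, with a change of 0.09. Ccng2, which encodes cyclin G2, changed by 0.15, and Ptprv, a receptor-type phosphatase gene that p53 raises in mice, by 0.16, both with all Zfp322a RNAi values above the control values.

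Death genes held the largest rise. They numbered 11, of which 5 rose (45.5%, against 14% of all genes), 0 fell (against 14.4%) and 6 were not called. The median change of the 11 was 0.25. Eda2r, a receptor of the tumour necrosis factor family that binds ectodysplasin A2, read 9.33 and 9.18 on the control arrays and 10.67 and 10.68 after Zfp322a RNAi. It rose by 1.42 ± 0.08, or 2.68-fold (adjusted p = 0.000778, limma), and was rank 49 among all genes by size of rise. Pmaip1, the gene of the BH3-only protein Noxa that frees the death machinery of mitochondria, read 9.65 and 9.58 against 10.38 and 10.27. Its rise was 0.71 ± 0.08, or 1.64-fold (adjusted p = 0.00222, limma). Perp, whose membrane protein serves in desmosomes and in p53-driven death, read 8.06 and 7.92 against 8.65 and 8.57 and rose by 0.62 ± 0.08, or 1.54-fold (adjusted p = 0.00379, limma). These 3 genes had no overlap between groups.

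Phlda3 and Tnfrsf10b rose by less. Phlda3, whose protein competes with the kinase Akt for membrane lipids, read 9.68 and 9.67 against 10.07 and 10.12, a rise of 0.42 ± 0.07 (adjusted p = 0.00731, limma). Tnfrsf10b, the death receptor for TRAIL in mice, read 5.37 and 5.32 against 5.69 and 5.61, a rise of 0.31 ± 0.07 (adjusted p = 0.0253, limma). Its mean lay below the median level of all genes, as did those of Fas, Tnfrsf23, Dram1 and Gadd45g.

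Bbc3, the gene of Puma and the best known p53 target of the mitochondrial pathway, did not pass the test. It read 8.03 and 7.85 against 8.23 and 8.15, a change of 0.25 ± 0.09 (adjusted p = 0.0851, limma), with all Zfp322a RNAi values above the control values. Zmat3, which encodes an RNA-binding zinc finger protein, changed by 0.18, Aen, a nuclease gene, by 0.13 and Ei24, a gene for a membrane protein of the endoplasmic reticulum, by 0.13, also without overlap and without a call. The death receptor gene Fas (4.0 and 4.10 against 3.97 and 4.34) and the decoy receptor gene Tnfrsf23 (4.83 and 4.97 against 4.78 and 4.86) had overlapping groups.

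Repair and metabolism genes changed by less than 1.5-fold on the probe set used for each, though other probe sets of Rrm2b and Sesn1 went beyond that. They numbered 4, of which 2 rose (50%, against 14% of all genes), 0 fell (against 14.4%) and 2 were not called. The median change of the 4 was 0.26. Dram1, which encodes a lysosomal membrane protein that p53 uses to raise autophagy, read 5.50 and 5.61 against 5.96 and 6.00. It rose by 0.43 ± 0.07 (adjusted p = 0.00956, limma). Polk, the gene of a DNA polymerase that copies past damaged bases, read 8.84 and 8.89 against 9.15 and 9.15 and rose by 0.29 ± 0.07 (adjusted p = 0.0262, limma). Rrm2b, the p53-controlled subunit of ribonucleotide reductase, read 7.87 and 7.58 against 7.92 and 7.97 (adjusted p = 0.192, limma), and Sesn1, a sestrin that restrains the growth kinase mTORC1, read 9.09 and 8.59 against 9.20 and 8.93 (adjusted p = 0.406, limma). The control arrays of Sesn1 spanned more than its change of 0.23.

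Some calls depended on the probe set that stood for the gene. Each gene was represented by its brightest probe set, and 17 members had more than 1. Over all 62 member probe sets 25 rose, 2 fell and 35 were not called in a limma fit over 45037 probe sets, where 10.6% of all probe sets were called higher and 9.47% lower. Of the 7 called members with several probe sets, 4 had another that rose (Mdm2, Ppm1d, Ccng1 and Polk) and 3 had no other that passed (Plk2, Psrc1 and Tnfrsf10b), and Mdm2 also had 1 that fell. Of the 16 members that were not called, 5 (Aen, Btg1, Gadd45b, Sesn1 and Rrm2b) had another probe set that rose. In this fit 20 members had at least 1 probe set higher, since the single probe set of Gadd45g was not called in it.

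**Figure D3:**
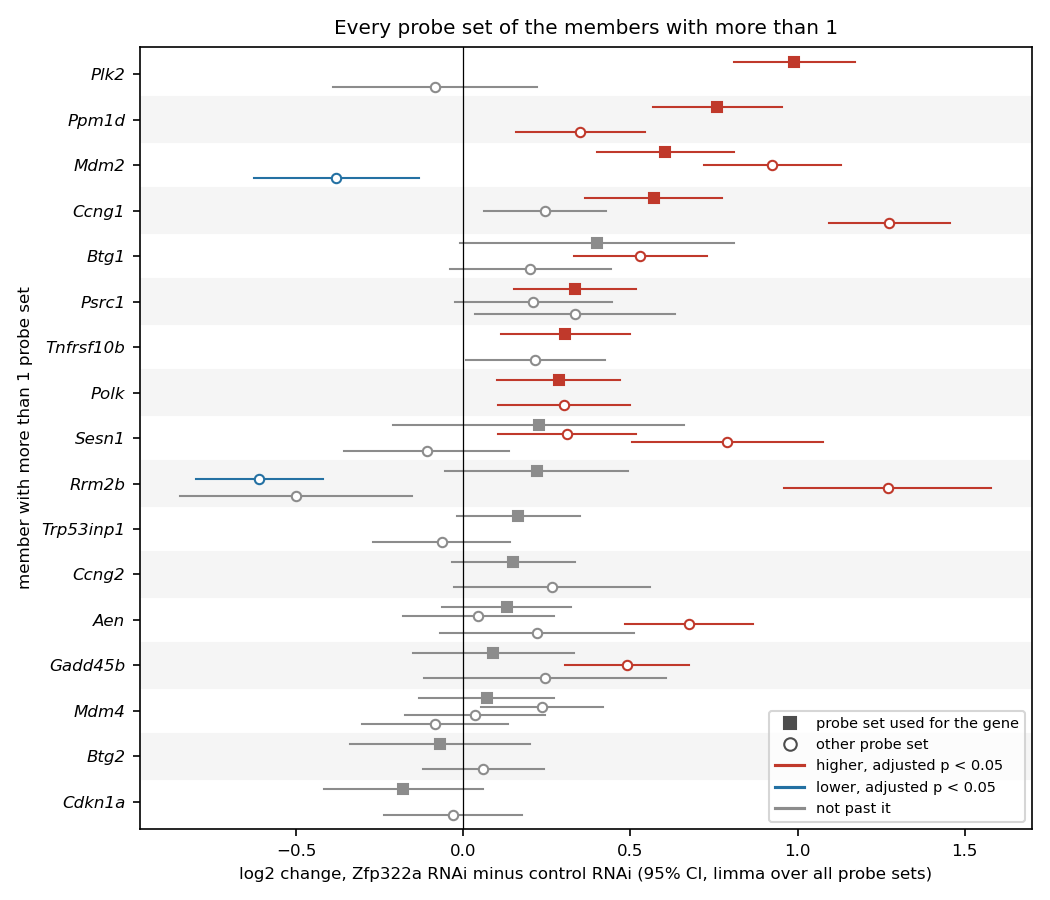
Log2 change with its 95% interval for every probe set of the 17 members that had more than 1, from a limma fit over all probe sets. Squares are the probe sets used for the gene, circles the others, and the only probe sets in blue, which fell, belong to Mdm2 (-0.38) and Rrm2b (-0.61).

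Rrm2b showed the widest split. A dim probe set read 3.99 and 4.35 against 5.46 and 5.42, a rise of 1.27 (adjusted p = 0.00247, limma), and another read 5.24 and 5.20 against 4.65 and 4.57, a fall of -0.61 (adjusted p = 0.00475, limma). No direction is given for this gene. For Ccng1, a second probe set read 10.58 and 10.56 against 11.85 and 11.84, a rise of 1.28 (adjusted p = 0.00105, limma) that was larger than that of the probe set used. For Mdm2, 2 probe sets rose, the second by 0.93 (9.02 and 9.16 against 10.01 and 10.02), and a dim one fell by 0.38 (5.43 and 5.67 against 5.18 and 5.16). Sesn1 had 2 probe sets that rose, by 0.79 and 0.31, neither of them the brightest. Aen rose by 0.68 (7.25 and 7.33 against 7.99 and 7.94), Btg1 by 0.53 and Gadd45b by 0.49 on one further probe set each. Which transcripts these probe sets read was not analysed here.

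Related members were compared within each array, as the difference between the changes of both genes, for 8 pairs. Gadd45a changed by 1.14 more than Gadd45b and by 0.77 more than Gadd45g. Mdm2 changed by 0.54 more than Mdm4, Ccng1 by 0.42 more than Ccng2, Tnfrsf10b by 0.39 more than Tnfrsf23 and Plk2 by 0.24 more than Plk3, while Gadd45b changed by less than Gadd45g (-0.37). In these 7 pairs the within-array differences of the groups did not overlap, and each had an exact permutation p of 0.333, the smallest that 2 arrays against 2 can give (0.381 after Benjamini-Hochberg adjustment over the 8 pairs). For Gadd45a and Gadd45g the difference was 0.475 without Zfp322a RNAi replicate 1, and without control RNAi replicate 2 it was 0.61 with an exact p of 0.667. For Btg1 and Btg2 the difference was 0.47 with overlapping arrays (exact p = 0.667). With the mean of all probe sets for a gene the difference between Plk2 and Plk3 turned to -0.30, since a dim probe set of Plk2 read 4.98 and 4.94 against 4.70 and 5.05.

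Genes listed as acting on p53 from above were more often called higher than lower. The 28 measured were kinases, ligases, modifiers and other regulators, with relatives of p53 among them. Of these 10 rose (35.7%, against 14% of all genes), 4 fell (14.3%, against 14.4%, about the share of all genes) and 14 were not called. Their median change was 0.10. The list mixes genes that activate p53 with genes that restrain it, so these counts have no single direction for p53. The largest rises were those of Rchy1, the ubiquitin ligase Pirh2 that is itself raised by p53 (0.89 ± 0.07, adjusted p = 0.00130, limma), Setd7, a methyltransferase of histones and of p53 (0.84 ± 0.08), and Trp53bp2, whose protein ASPP2 turns p53 towards death genes (0.70 ± 0.07). Atm, the kinase that answers to DNA double-strand breaks, read 8.98 and 9.10 against 9.43 and 9.43 and rose by 0.39 ± 0.07 (adjusted p = 0.0130, limma). Chek2, its partner kinase, read 9.44 and 9.47 against 9.26 and 9.26, a change of -0.20 that was not called (adjusted p = 0.0795, limma). Cdkn2a, the locus of Arf, which blocks Mdm2, and of the cell cycle inhibitor p16, read 6.76 and 6.75 against 5.82 and 5.90. It fell by 0.90 on the log2 scale (adjusted p = 0.00117, limma), and Trim24, a ligase of p53, and Prkdc, a DNA damage kinase, fell by 0.40 and 0.36. The gene symbol does not tell Arf from p16.

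p53 targets outside the list changed in both directions, and more of them fell than rose. Among the 27 measured, 5 rose (18.5%, against 14% of all genes), 9 fell (33.3%, against 14.4%) and 13 were not called. Their median change was -0.03, close to that of all genes. The rises included Ddit4, an inhibitor of mTORC1 (0.70 ± 0.07), Slc19a2, a thiamine transporter (0.69 ± 0.07), and Lif (0.50 ± 0.10), and the falls Sfn, the 14-3-3 protein that holds cells in G2 (-0.63 ± 0.08), Pml (-0.49 ± 0.07) and Ninj1 (-0.49 ± 0.07). The nucleotide excision repair genes Ddb2 (-0.44 ± 0.07, adjusted p = 0.00777, limma) and Xpc (-0.34 ± 0.09, adjusted p = 0.0384, limma), named after their values were seen, fell too. Ercc5, a further gene of that repair pathway in the list and also named later, changed by -0.025 with overlapping groups and was not called. Of 16 measured cell cycle genes that p53 lowers through p21 and the DREAM repressor, 1 rose (Cdk1, 0.33 ± 0.08), 4 fell and 11 were not called. The shares that rose and fell were 6.25% and 25%, against 14% and 14.4% of all genes, and the median change was -0.19. The falls included E2f1 (-0.46 ± 0.07), Cdc25c (-0.33 ± 0.09) and Bub1b (-0.29 ± 0.08), and the count of falls in this list was 1 with each array centred on its own median, 9 with a variance prior that follows the level and 0 by the 1.5-fold rule.

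**Figure D4:**
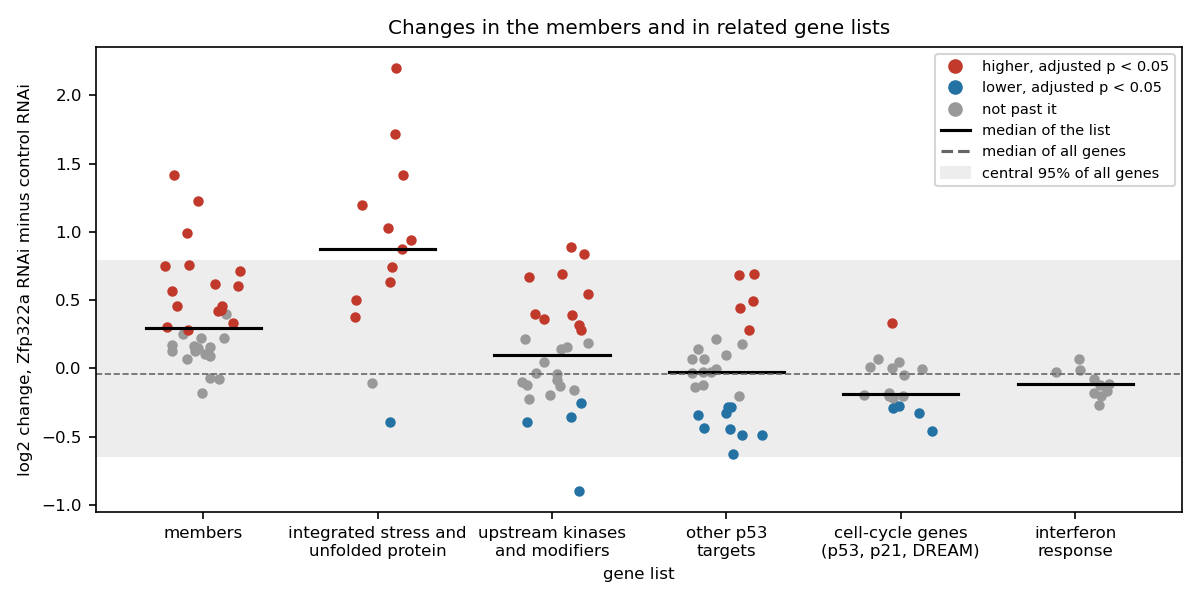
Log2 change of every measured gene in the 32 members and in 5 related lists, with red and blue for genes that rose or fell, black bars for the median of each list and a dashed line at the median of all genes (-0.04). The grey band holds the central 95% of all 18193 genes (-0.64 to 0.79), and the members reach above it with 3 genes, Eda2r, Gadd45a and Plk2.

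Stress genes of another pathway moved in the same samples. Of 13 measured genes of the integrated stress and unfolded protein responses 11 rose (84.6%, against 14% of all genes). Of the others 1 fell (7.69%, against 14.4%) and 1 was not called, and the median change of the list was 0.88. Ddit3, which encodes CHOP, read 8.38 and 8.45 against 10.64 and 10.59 (2.20 ± 0.07, adjusted p = 0.000271, limma). Herpud1 rose by 1.72, Nupr1 by 1.42 and Atf4, whose protein drives this response mostly through its translation, by 0.38 (adjusted p = 0.0128, limma), while Asns, a target of ATF4, fell (-0.39). The summed level of the list, as the sum of linear RMA values, was 25019 to 25054 on the control arrays and 30604 to 31139 after Zfp322a RNAi. The brightest genes of the list weigh most in this sum. Gadd45a, Tnfrsf10b and Pmaip1 are known to respond to ATF4 or CHOP as well as to p53, and the part of the stress response in their rise was not tested.

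Markers of other cells were set beside the members. Of 8 primitive endoderm markers 6 rose (75%, against 14% of all genes), Gata6 the most (1.42 ± 0.08), and 2, Gata4 and Col4a1, did not pass the test. The summed levels of the 8 were 1198 to 1205 on the control arrays and 1346 to 1377 after Zfp322a RNAi. Col4a1 was the brightest of the 8, at 9.60 and 9.61 against 9.37 and 9.39, and weighs most in these sums. Of 8 fibroblast and feeder markers 7 did not pass the test and Thy1 fell (-0.56), a share of 12.5% against 14.4% of all genes. Their summed levels were 377 to 378 and 308 to 317, and Thy1, the brightest of them, weighs most in these sums. None of the markers was at 0 on the log2 scale, on which RMA gives every probe set a level above 0. Of 10 measured interferon response genes, which a hairpin RNA can raise, 0 were called by limma in either direction, against 28.4% of all genes. At an unadjusted limma p under 0.05, 0 of them were higher and 1 lower, where 3312 and 3872 of all 18193 genes were. In such bulk samples a change in the share of cells and a change in RNA per cell cannot be told apart, and the part of the endoderm markers in the changes of the members was not tested.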

How the data were processed

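Total RNA of 4 samples was hybridised to 1-colour Affymetrix Mouse Genome MG430 Plus 2.0 arrays. The authors processed the arrays with RMA, which corrects background, equalises quantiles between arrays and summarises each probe set, and the values they deposited are log2 levels. A shift common to all genes would be removed by that step. Values ran from 2.62 to 14.6 over 45037 probe sets. The labels and the study's transfection methods give 3 days of puromycin selection, its array methods a longer time, and the labels are followed. Groups come from the sample titles.

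Of the probe sets, 34945 had 1 gene symbol, 932 several and 9160 none. Symbols were updated through Entrez IDs in the RefSeq gene table (34741 matched), and the probe set of highest mean was kept for each of 18193 genes. limma 3.58.1 in R 4.3.3 (lmFit, eBayes, two-sided, 2 residual degrees of freedom, group the only term) gave the tests, and p-values were adjusted over all genes by Benjamini-Hochberg, with 0.05 as the threshold. The median SE was 0.08. The number of arrays limits the precision. The procedure was tested on simulated data.

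All members are named. In other lists, up to 3 largest rises and 3 largest falls among called genes are named, with Atm, Chek2, Cdkn2a, Atf4, Ddit3 and markers, and other names are said to be chosen later. Members and lists were chosen with earlier results of these data known. The alternatives were centring, quantile normalization, a variance trend, a filter on dim genes, the mean of probe sets, leaving out probe sets open to cross-hybridization, the replicate block, leaving out each array, the fold rule and a shorter promoter window.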

Additional observations from a re-analysis of the deposited data

How the results depend on the processing

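The count of members that rose was 16 to 19 with centring, quantile normalization, a variance trend, dim genes left out (27 members tested), averaged probe sets or cross-hybridizing probe sets removed, and 0 members fell in any of these. It was 12 with the replicate block, where Gadd45g, Psrc1, Tnfrsf10b and Polk were lost, and 8 with the 1.5-fold rule. The block was not taken as a pairing, since the numbers only name the samples and same-numbered arrays deviated together by a correlation of 0.0406. Leaving out any 1 array gave 0 calls, higher or lower, among all genes, the members, their probe sets, the upstream, other target, cell cycle and stress lists, and Zfp322a changed by -1.67 to -1.27 without passing the test. In these fits Gadd45b ranged from 0 to 0.18, Btg2 from -0.205 to 0.065, Sesn1 from -0.025 to 0.475 and Fas from -0.08 to 0.29, with a change of sign or to 0. Without a change of sign, the called Gadd45g ranged from 0.27 to 0.65, Cdkn1a from -0.285 to -0.075, Btg1 from 0.19 to 0.61 and Rrm2b from 0.075 to 0.365, and the uncalled Aen, Bbc3, Ei24, Mdm4, Ptprv and Tnfrsf23 also moved by over 1.5 times. The difference between Gadd45a and Gadd45g went down to 0.475, and that between Btg1 and Btg2 ranged from 0.125 to 0.815.

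Under the replicate block 1493 genes rose and 1163 fell, against 2545 and 2618, with 0 member probe sets in either direction, 5 and 1 upstream genes, 2 and 4 other targets, and 0 and 1 cell cycle genes. Under the 1.5-fold rule 919 genes were higher and 582 lower, with 13 and 1 member probe sets, 4 and 1 upstream genes, 2 and 1 other targets, 0 and 0 cell cycle genes, and 0 stress genes lower. With the variance trend 7 upstream and 9 cell cycle genes fell, with dim genes left out 8 cell cycle genes fell, and with centring 1 did. Centring and quantile normalization each left 1 member probe set lower. The cause was not tested for these. With averaged probe sets the paralog difference was -0.30 for Plk2 and Plk3, which turned its sign, -0.19 for Gadd45b and Gadd45g, 0.49 for Ccng1 and Ccng2, and 0.32 for Mdm2 and Mdm4, the last 0.37 without probe sets open to cross-hybridization. In windows of 100 bases before to 50 after the start, 4 member windows held a p53 half-site and 1 the letters TTGCATCA.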

Other observations

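Some calls of single members changed with the processing. With a variance prior that follows the level, Trp53inp1, Btg1, Bbc3 and Zmat3 passed the limma test and Tnfrsf10b no longer did (adjusted p = 0.0536). Trp53inp1, Ccng2, Bbc3 and Zmat3 passed when dim genes were left out, and Btg1 and Aen with averaged probe sets. Bbc3, the gene of Puma, then had adjusted p-values of 0.0379 and 0.0266, against 0.0851 in the fit reported, with its change of 0.25 unaltered. Without probe sets open to cross-hybridization Sesn1 was represented by a dimmer probe set and rose by 0.79 (adjusted p = 0.00488, limma), Mdm4 rose by 0.24 (adjusted p = 0.0480) and Tnfrsf10b was no longer called (0.22, adjusted p = 0.0983). Cdkn1a was not called as higher in any of the alternatives.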
